A study of Triticum aestivum with 54 samples.

Results

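The young inflorescence of the synthetic allotetraploid wheat AT2 was compared with its leaf on 24 arrays, 12 of each tissue, out of 54 arrays in the series. The 24 arrays were chosen by their titles: AT2 at the selfed generations S5, S6, S7 and S8, with 3 arrays per generation and tissue. AT2 was made by crossing Aegilops longissima (accession TL05, female, S genome) with Triticum urartu (accession TMU06, A genome) and doubling the chromosomes with colchicine, so that all 24 arrays carry RNA of 1 synthetic line and its selfed descendants. Leaf RNA came from seedlings aged 3 weeks (their second leaf) and young inflorescence RNA from plants at booting, so that the tissue and the age of the plant cannot be told apart. All plants were untreated and grown in chambers, and every array held 1 pool of plants. The same tissue difference was set against that of Mix, a 1:1 mixture of RNA of both parents (6 arrays), and of 2 natural tetraploids, the dicoccoides line TD and the durum line TTR13, which carry the B and A genomes (12 arrays). In the labels the genotype is AT2 throughout, also for the other genotypes, and the extraction note names leaf as the source of all RNA, while the title, source and tissue fields give the tissue used here.

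The booting inflorescence of wheat is a young, growing organ in which florets form and cells divide. Dividing cells make histones, the proteins that package newly copied DNA, and tubulins, the subunits of the microtubules that move chromosomes and guide the cell wall. A seedling leaf blade is instead the main site of photosynthesis, where light is captured in the chloroplast membranes and carbon dioxide is fixed by Rubisco and the Calvin cycle, and where catalase and other redox enzymes deal with the peroxides that arise.

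Expression was measured with the Affymetrix Wheat Genome Array, on which a transcript is read by 1 or more probe sets. The values are log2 levels, on which a difference of 1 is a 2-fold change. Of 61115 probe sets, 25645 (42%) were analysed, those with all 3 arrays of at least 1 of the 8 groups over the 65th percentile of that array's values (5.66 to 5.71), and they are called genes below, although some share a gene. A gene that passes through 1 tissue alone is likely to be higher in that tissue, so that the filter in part sets its direction. A gene was called where limma gave a Benjamini-Yekutieli adjusted p below 0.05. The annotation pairs 1273 probe sets of the array with a gene. Of these, 200 belong to the genes that were given a name here, and 108 of the 200 were analysed. A level below the array median (4.72 to 4.80) could not be separated from background, so for a gene with such levels in AT2 the difference is also given, at its main mention, with them set to the median of their array. Many probe sets with the suffixes x, s or a hold probes that match related transcripts, and the array does not separate the subgenome copies of a gene, so that members of the histone and tubulin families may share signal. In the text, though not in the figures, probe set names leave out the point after Ta or TaAffx.

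The tissues stood far apart. Across the analysed genes (not independent replicates), Pearson correlations were 0.398 to 0.511 between a young inflorescence and a leaf array, against 0.983 to 0.996 between young inflorescence arrays and 0.966 to 0.993 between leaf arrays of the same generation. Arrays of different generations correlated at 0.977 to 0.992 in young inflorescence and at 0.910 to 0.966 in leaf, and the median residual SD of a gene was 0.128 and 0.178 in these tissues. No array lay closer to the other tissue than to its own.

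Most genes differed between the tissues. Averaged over the generations, 21926 of 25645 genes (85.5%) were called, 11900 (46.4%) higher and 10026 (39.1%) lower in young inflorescence. In RNA from whole tissue, fewer cells of a type and less RNA per cell cannot be told apart. With a change of at least 2-fold, 6769 (26.4%) were higher and 5488 (21.4%) lower. Of all called genes, 54.3% were higher in young inflorescence, and 51.7% with a further quantile normalization. The median difference over all genes was 0.10, the median absolute difference 0.94 and the median standard error 0.07 on the log2 scale.

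Among large changes, falls were at least as many as rises. At least 4-fold differences were seen in 2892 genes higher and 2989 genes lower in young inflorescence, at least 16-fold differences in 629 and 871, and at least 64-fold differences in 153 and 198. All 12 young inflorescence arrays lay above all 12 leaf arrays for 8339 genes (32.5%) and below them for 6215 genes (24.2%). Among genes changed at least 2-fold, 601 had all 12 young inflorescence arrays above and all 12 leaf arrays below the array median, and 741 had the reverse.

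**Figure D1:**
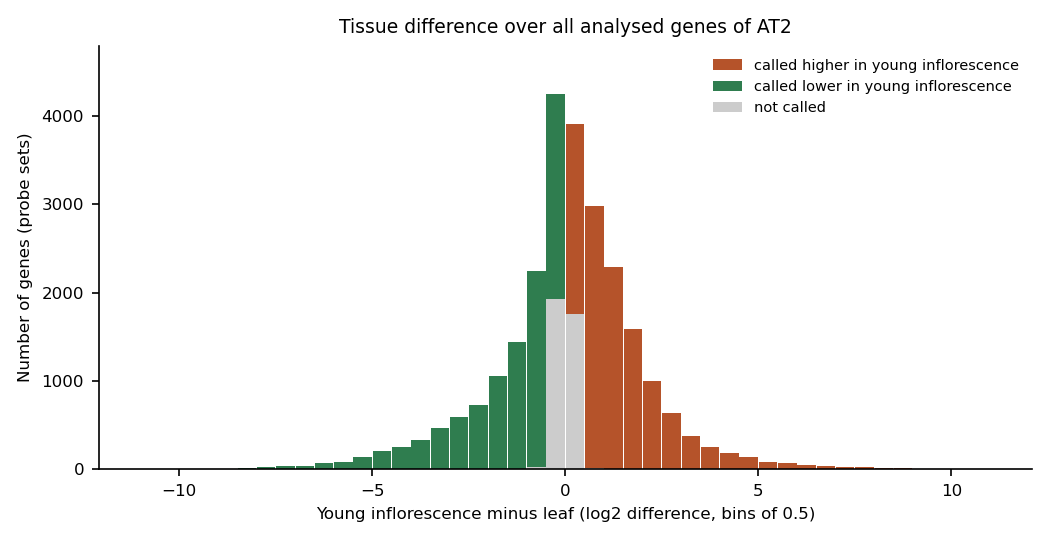
Number of analysed genes (y axis) by the difference of young inflorescence minus leaf in AT2 (x axis, log2, mean of the 4 generations, bins of 0.5), with genes called higher, called lower and not called stacked in 3 colours. Of the 25645 genes, 11900 were called higher and 10026 lower, and the genes that were not called sit around 0.

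Of the 108 named probe sets analysed, 45 were higher in young inflorescence, 57 lower and 6 not called, beside 46.4% higher and 39.1% lower over all genes, and their median difference was -0.33. Over all genes the arrays of the tissues did not overlap for 32.5% that were higher and 24.2% that were lower. These shares are the background for the counts of the lists below.

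All analysed histone probe sets rose. All 15 analysed probe sets of the 18 annotated to core histone genes were higher in young inflorescence, and in all 15 the lowest young inflorescence array lay above the highest leaf array, with a median difference of 5.99 (5.96 with low levels set to the array medians) against 0.10 over all genes. They belong to the H2A genes wcH2A-9 and wcH2A-2 and the H2B genes wcH2B-8 and wcH2B-6, whose products form the dimers on the outer faces of the nucleosome. Most of the 15 passed the filter only through young inflorescence groups, so that the filter in part set their direction. Those with leaf means over the filter limit were wcH2B-6 (8.09 and 6.46) and wcH2B-8 at Ta7378.1.S1_x_at (6.52). The 3 histone probe sets that were not analysed had group means of at most 4.67 in young inflorescence and 5.65 in leaf. Of these, the wcH2A-3 probe set Ta27192.1.S1_s_at leaned to leaf, with a mean of 4.30 in young inflorescence and 5.25 in leaf. The wcH2A-3 probe set Ta27192.1.S1_at (4.18 and 2.95) and the wcH2B-8 probe set Ta7378.17.S1_x_at (3.71 and 3.15) leaned to young inflorescence.

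A wcH2A-9 probe set (Ta27657.14.S1_x_at) gave a lowest, median and highest level of 11.80, 11.93 and 12.21 in young inflorescence and of 2.77, 3.40 and 3.68 in leaf. All leaf arrays lay below their medians, and the groups did not overlap. The difference was 8.65 (standard error 0.07, adjusted p = 1.34e-26 from limma), and 7.20 with the leaf levels set to the array medians. The wcH2A-9 probe set Ta27657.6.S1_x_at had 13.85, 13.91 and 14.01 in young inflorescence and 4.72, 5.18 and 5.88 in leaf, again with a difference of 8.65, or 402-fold. Here only 1 leaf array lay below its median.

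The H2B genes followed the same direction. The wcH2B-8 probe set Ta7378.1.S1_x_at had a lowest, median and highest level of 12.58, 12.84 and 12.95 in young inflorescence and 5.97, 6.50 and 7.09 in leaf, with every leaf array above its median and a difference of 6.28 (standard error 0.10, adjusted p = 7.10e-22). The H2A gene wcH2A-2 (Ta29542.1.S1_x_at) differed by 6.73 (standard error 0.08), and by 6.34 with 8 leaf arrays set to their medians. wcH2B-6 differed by 3.55 and 3.35 in its 2 probe sets, from leaf levels of 6.04 and above that were well over the array medians. A further wcH2A-9 probe set, Ta27657.1.S1_at, differed by 2.35, or by 1.97 with 10 leaf arrays set to their medians.

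Tubulins were also higher in young inflorescence. Of 9 analysed probe sets, 7 were called higher, none lower and 2 were not called, with a median difference of 2.46, and in all 7 the arrays of the tissues did not overlap. The beta-tubulin gene Tubb5 (Ta214.1.S1_at) had a lowest, median and highest level of 12.07, 12.43 and 12.64 in young inflorescence and 6.73, 7.36 and 8.90 in leaf. The difference was 4.79 (standard error 0.15, adjusted p = 1.00e-16), a 27.7-fold change. The leaf arrays spread more than the young inflorescence arrays, and this was wider still for tubb2 (Ta1544.1.S1_at), where the levels were 13.03, 13.15 and 13.21 in young inflorescence and 6.92, 8.73 and 11.19 in leaf.

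The other tubulins rose by smaller amounts. The alpha-tubulin gene TUBA (Ta812.1.S1_x_at) was higher by 2.46, tubb1 by 3.37, tubb3 by 1.51 and Tubb4 by only 0.41 (standard errors 0.10, 0.20, 0.14 and 0.06). By generation, tubb3 was not called in S8 (0.73, adjusted p = 0.279 from limma). Tubb4 was not called in S5 or S8 (0.26 and 0.31, adjusted p = 0.613 and 0.249 from limma). A second TUBA probe set, Ta723.1.S1_at, was not called (0.21, standard error 0.09, adjusted p = 0.283), but was called without 1 leaf array of S5 (0.27, adjusted p = 0.0167) and without generation S5 (0.33, adjusted p = 0.00113). Not called either was the Tubb5 probe set Ta214.2.A1_x_at (0.17, standard error 0.10). The levels of both uncalled probe sets had medians of 6.36 and 6.53 in young inflorescence and 6.04 and 6.40 in leaf.

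The analysed translation genes rose by smaller amounts, with 1 exception. Of 7 analysed probe sets, 6 were higher and 1 lower, with a median of 1.19. The 2 not analysed, of RPS29, went apart. Ta24254.3.S1_x_at leaned to leaf, with means of 4.09 in young inflorescence and 5.09 in leaf, and Ta30687.2.S1_x_at to young inflorescence (5.20 and 3.85). The translation elongation factor gene TEF1 (Ta659.2.S1_x_at), which brings aminoacyl-tRNA to the ribosome, had a lowest, median and highest level of 13.34, 13.47 and 13.71 in young inflorescence and 11.71, 12.24 and 12.60 in leaf, a 2.47-fold change (standard error 0.05 on the log2 scale, adjusted p = 2.03e-15). NCBP, a cap-binding protein gene, was higher by 1.77, the cap-binding initiation factor gene eIF4E by 1.27, and the initiation factor genes Eif4B and eIF-2-beta by 1.19 and 1.13. The exception was RPL9, a ribosomal protein gene that the annotation also calls CL9, with levels of 7.27, 7.40 and 7.96 in young inflorescence and 10.10, 10.73 and 11.32 in leaf (difference -3.28, standard error 0.06). Whether its product belongs to the ribosome of the cytosol or of the chloroplast was not determined here.

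Hmgb3, which codes for a DNA-bending chromatin protein, was higher in young inflorescence by 2.14 and 1.87 in its 2 probe sets (standard errors 0.08 and 0.07). SAHH, whose enzyme clears the by-product of methylation reactions, was slightly lower in both of its probe sets, by 0.31 and 0.27, and was not called where the 4 generation means of each tissue served as the samples (adjusted p = 0.113 and 0.467). Other named genes that rose were TBP1, the TATA-binding protein of the general transcription machinery (1.61), FKBP70, a peptidyl-prolyl isomerase (1.28), XTH, an enzyme that remodels cell wall xyloglucan (1.23), and APT1 and AdSS, which act in adenine nucleotide supply (1.02 and 0.79).

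**Figure D2:**
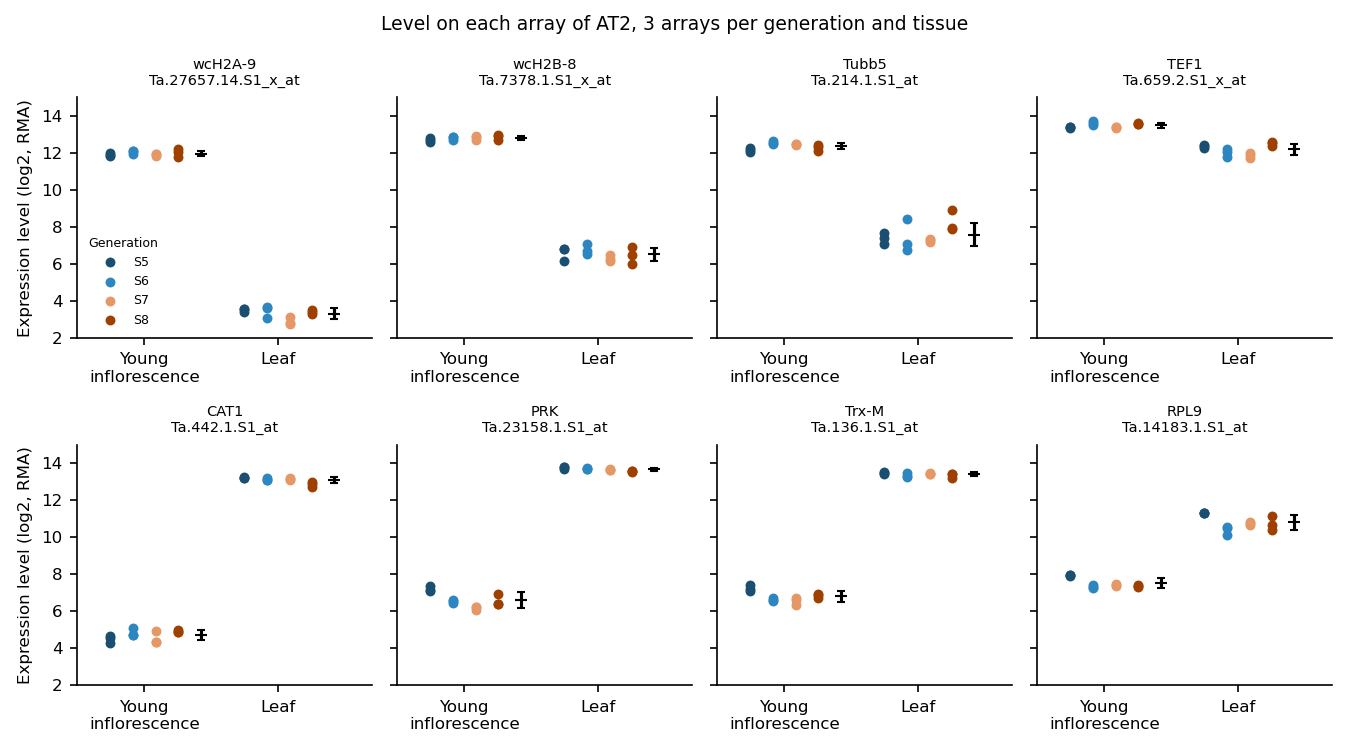
Level of 8 genes on each array (y axis, log2), with young inflorescence left and leaf right in each panel, points coloured by generation, and bars for the mean and SD of 12 arrays. The wcH2A-9, wcH2B-8, Tubb5 and TEF1 points are higher in young inflorescence and those of CAT1, PRK, Trx-M and RPL9 are lower, with no overlap in any panel.

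Photosynthesis genes of the nucleus moved the other way. All 6 analysed probe sets of 8 were lower in young inflorescence, none overlapped between the tissues, and the median difference was -4.95. PRK, phosphoribulokinase of the Calvin cycle (Ta23158.1.S1_at), had a lowest, median and highest level of 6.07, 6.50 and 7.36 in young inflorescence and 13.52, 13.66 and 13.80 in leaf. All arrays lay above their medians in both tissues, and the difference of -7.05 (standard error 0.06, adjusted p = 2.43e-26) is a 132-fold change. FBP, the fructose-bisphosphatase gene, fell by 6.13 (standard error 0.05).

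The thylakoid genes fell less far. PsbO (Ta841.1.S1_a_at), a subunit of the oxygen-evolving complex of photosystem II, had 10.21, 10.36 and 10.98 in young inflorescence and 13.64, 13.81 and 13.85 in leaf. PsbP, another subunit of that complex, differed by -5.15 and -4.04 in its 2 probe sets. petC, the Rieske iron-sulfur protein of the cytochrome b6f complex, differed by -4.76 (standard error 0.05, adjusted p = 3.85e-25), and its median level of 9.11 in young inflorescence was still far above the array median.

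The large subunit of Rubisco, rbcl, is coded in the chloroplast genome and is read by 28 probe sets, of which 10 were analysed. Of these, 9 were lower and 1 was higher in young inflorescence, with a median of -2.44 before any level was set to the array median. TaAffx128414.42.S1_at, TaAffx128414.126.S1_at, TaAffx128414.130.S1_at, TaAffx128414.146.S1_at and TaAffx128414.72.S1_at passed the filter only through leaf, so that the filter in part set their direction. With low levels set to the array medians, the first 4 of them differed by -1.01, -1.17, -2.53 and -2.93. The 2 with the smallest falls, Ta24976.1.S1_x_at and TaAffx128414.1.A1_x_at, had medians of 13.27 and 13.15 in young inflorescence and 14.49 and 14.54 in leaf, differences of -1.18 and -1.30. Their leaf levels lie next to the highest value on any AT2 array, 14.55, and the part of that upper end in the small differences was not tested. The largest fall was at TaAffx128414.72.S1_at (-5.70, or -3.79 with young inflorescence levels set to the array medians), and the probe set that rose, TaAffx128414.196.S1_at, differed by 1.06 (standard error 0.07), with 7.91 to 8.63 in young inflorescence and 7.04 to 7.71 in leaf. Of the 18 not analysed, 14 lay below the array median on all 24 arrays. Among the rest, TaAffx128414.229.A1_x_at leaned to young inflorescence, with means of 4.79 there and 2.50 in leaf. TaAffx128414.16.S1_at (3.50 and 5.55) and TaAffx128414.47.S1_at (3.80 and 5.21) leaned to leaf, and TaAffx128414.15.S1_at was nearly level (4.56 and 4.58).

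Redox genes were lower in 8 of 8 analysed probe sets of 14, beside 39.1% over all genes, with a median of -4.61. CAT1, GSTZ1 and the lgul probe set Ta8554.1.S1_at passed the filter only through leaf, so that the filter in part set their direction. Of the 6 not analysed, the PER1 probe set Ta14503.1.S1_at leaned to young inflorescence, with means of 5.17 there and 4.76 in leaf. The others of the 6 leaned to leaf. CAT1 (Ta442.1.S1_at), a catalase that breaks down hydrogen peroxide, had the largest fall of any named gene, with a lowest, median and highest level of 4.26, 4.71 and 5.09 in young inflorescence and 12.72, 13.12 and 13.24 in leaf. The difference was -8.39 (standard error 0.07, adjusted p = 2.51e-26), and -8.25 with the 7 low young inflorescence arrays set to their medians. Trx-M, the m-type thioredoxin of the chloroplast (Ta136.1.S1_at), had 6.31, 6.72 and 7.40 in young inflorescence and 13.18, 13.42 and 13.50 in leaf, a 95.9-fold change. Its arrays did not overlap and lay above their medians in both tissues.

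The other redox members fell by intermediate amounts. The probe sets of lgul, which codes for lactoylglutathione lyase, the enzyme that removes methylglyoxal, differed by -5.83 and -3.43, those of Prx1 by -5.22 and -3.37, and those of the zeta-class glutathione transferase gene GSTZ1 by -3.99 (-3.87 with 5 young inflorescence arrays set to their medians) and -3.30. Beyond this list, GAPN, the non-phosphorylating glyceraldehyde-3-phosphate dehydrogenase that makes NADPH, fell by 5.94 (standard error 0.10, adjusted p = 9.19e-22). PEAMT1, a methyltransferase in phosphocholine synthesis, fell by 4.58, and Pgk-1, phosphoglycerate kinase, by 4.26. The fructan-degrading enzyme gene 1-FEH fell by 2.35, and the actin-binding profilin gene PRO1 by 1.17 and 0.66.

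**Figure D3:**
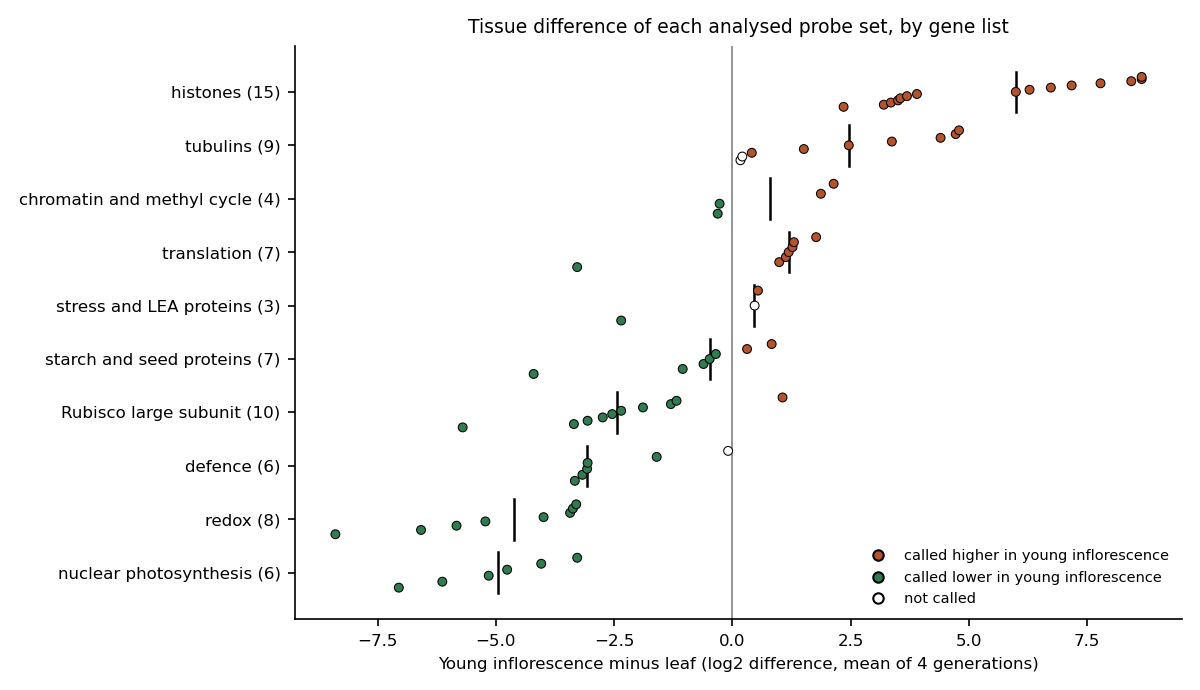
Difference of young inflorescence minus leaf in AT2 (x axis, log2) for each analysed probe set of 10 gene lists (y axis, number analysed in brackets), with the list median as a vertical bar. All 15 histone points lie right of 0, all 6 nuclear photosynthesis points and all 8 redox points lie left of 0, and 2 tubulins, 1 defence gene and 1 stress gene were not called.

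Defence genes were lower in young inflorescence in 5 of 6 probe sets, with a median of -3.07 before any level was set to the array median. PR5, the XIP-I probe sets and the LTP3 probe set Ta1282.4.S1_at passed the filter only through leaf, so that the filter in part set their direction. With low levels set to the array medians, the difference was -1.99 for XIP-I at Ta1200.1.S1_x_at and -1.56 for LTP3 at Ta1282.4.S1_at. The lipid transfer protein gene LTP3 (Ta1282.1.S1_x_at) had a lowest, median and highest level of 7.33, 7.56 and 7.91 in young inflorescence and 10.03, 10.69 and 11.75 in leaf, a difference of -3.33 (standard error 0.11). XIP-I, which codes for a xylanase inhibitor (Ta1200.1.S1_at), was called (-3.07, standard error 0.24, adjusted p = 8.97e-10, or -2.88 with 9 young inflorescence arrays set to their medians), but its arrays overlapped, with 4.23, 4.55 and 7.17 in young inflorescence and 6.05, 8.24 and 9.97 in leaf. The 3 highest young inflorescence arrays, at 5.10, 6.57 and 7.17, were those of S5. The gene wci was not called (-0.09, standard error 0.06).

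Genes of starch synthesis were lower in young inflorescence, whereas most seed protein genes were below the analysis limit in both tissues. AGA.1, the large subunit of ADP-glucose pyrophosphorylase (Ta23665.1.S1_at), had 6.09, 6.33 and 6.98 in young inflorescence and 10.37, 10.62 and 10.90 in leaf, a difference of -4.20 (standard error 0.06), and AGP-S, the small subunit of that enzyme, fell by 1.05. A second AGA.1 probe set, Ta23665.1.A1_at, differed by only -0.61 (standard error 0.07), and its arrays overlapped. It was not called in S5 (adjusted p = 0.222 from limma) or with a minimum fold change of 1.5. Over this list 2 probe sets were higher and 5 lower, of 37 annotated. Of the 30 that were not analysed, 24 lay below the array median on all 24 arrays, and the highest young inflorescence mean among the 30 was 4.80. The 4 probe sets of raftin, a gene of the tapetum of the anther, and the 4 of GA20ox, an enzyme of gibberellin synthesis, were not analysed either, with group means of at most 5.73 and 5.66. Of 3 analysed stress and late embryogenesis genes, the dehydrin gene Rab15 rose by 0.54 (standard error 0.06), WZF1 is described below, and Em was not called, at 5.47 to 7.79 in young inflorescence and 5.40 to 5.86 in leaf (adjusted p = 0.513 from limma). Of the 9 not analysed, all but COR410 (3.40 in young inflorescence, 3.54 in leaf) had a higher mean in young inflorescence. Among these were the Em probe set Ta25025.1.S1_at (5.04 and 3.69) and LEA1 (5.29 and 2.97), with leaf levels below the array medians.

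None of the 200 named probe sets carried a name of a floral MADS box or knotted gene, so that the inflorescence label was checked only on dividing-tissue genes.

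The tissue difference was found again in each generation. Between 18042 (70.4%, S8) and 18891 (73.7%, S7) genes were called per generation, with 18188 (70.9%) in S5 and 18355 (71.6%) in S6. In all 4 generations 14477 genes were called in the same direction, 8295 (32.3%) higher and 6182 (24.1%) lower in young inflorescence. Only 203 genes were called higher in 1 generation and lower in another. Across genes, the differences of any 2 generations correlated at 0.945 to 0.972.

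The size of the difference varied between generations for 4385 genes (17.1%, moderated F-test in limma). Of these, 396 also varied between the generations in young inflorescence and 4097 in leaf, with 238 in both. The number was 2203 without S5 and 2658 without S7. Over all genes, 1213 (4.73%) varied between generations in young inflorescence and 11250 (43.9%) in leaf. The young inflorescence count fell to 781, 799 and 701 without each of the 3 young inflorescence arrays of S5, and both counts depend on how the spread is estimated: a fit of each tissue alone gave 1425 in young inflorescence and 5225 in leaf. Whether the plants of the generations were grown and hybridised together is not stated, so that generation and batch cannot be told apart.

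Among named probe sets, 20 of the 108 varied between generations, a share near the 17.1% over all genes, and 4 of them were in the nuclear photosynthesis list (PRK, FBP, petC and PsbO). In these 4 the young inflorescence varied and the leaf did not pass the test, with adjusted p-values from limma of 0.000575 for PRK and 0.000557 for petC in young inflorescence. In the order S5 to S8, PRK averaged 7.19 ± 0.15, 6.53 ± 0.08, 6.17 ± 0.09 and 6.56 ± 0.33 in young inflorescence (SD, n = 3 each), against 13.75, 13.70, 13.64 and 13.56 in leaf. S5 young inflorescence was thus the highest of the 4, and the same held for petC (9.70 in S5, 8.90 to 9.12 in the other generations) and PsbO (10.96 in S5, 10.30 to 10.50 in the other generations). The tissue differences of petC were -4.19, -5.15, -4.86 and -4.82 in S5 to S8 (adjusted p of the F-test = 0.00156).

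Pgk-1 and a Prx1 probe set (Ta6572.1.S1_a_at) were likewise highest in S5 in young inflorescence, with means of 9.69 in S5 against 9.14 to 9.20 in the later generations for Pgk-1, and of 7.50 against 6.65 to 6.91 for Prx1. Prx1 also varied in leaf, with means of 11.91, 12.03, 12.59 and 12.23 in S5 to S8 (adjusted p from limma = 0.0291 in young inflorescence and 0.0366 in leaf). The zinc finger gene WZF1 (Ta103.1.S1_at) varied in leaf. Its means were 2.35 ± 0.08, 2.19 ± 0.21, 2.34 ± 0.18 and 2.33 ± 0.33 in young inflorescence of S5 to S8, all below the array medians, and 6.55 ± 0.46, 3.54 ± 0.50, 4.46 ± 0.29 and 4.07 ± 0.40 in leaf (adjusted p of the F-test = 0.000239). Only the leaf of S5 was clearly above the array median. The tissue difference of WZF1 over the 4 generations was -2.35, and -0.46 with low levels set to the array medians. The wcH2A-9 probe set Ta27657.14.S1_s_at varied in leaf between 3.23 (S7) and 4.78 (S5), around or below the array median, while its young inflorescence means stayed between 12.28 and 12.47. Its tissue difference was 8.43, or 7.61 with low levels so set.

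**Figure D4:**
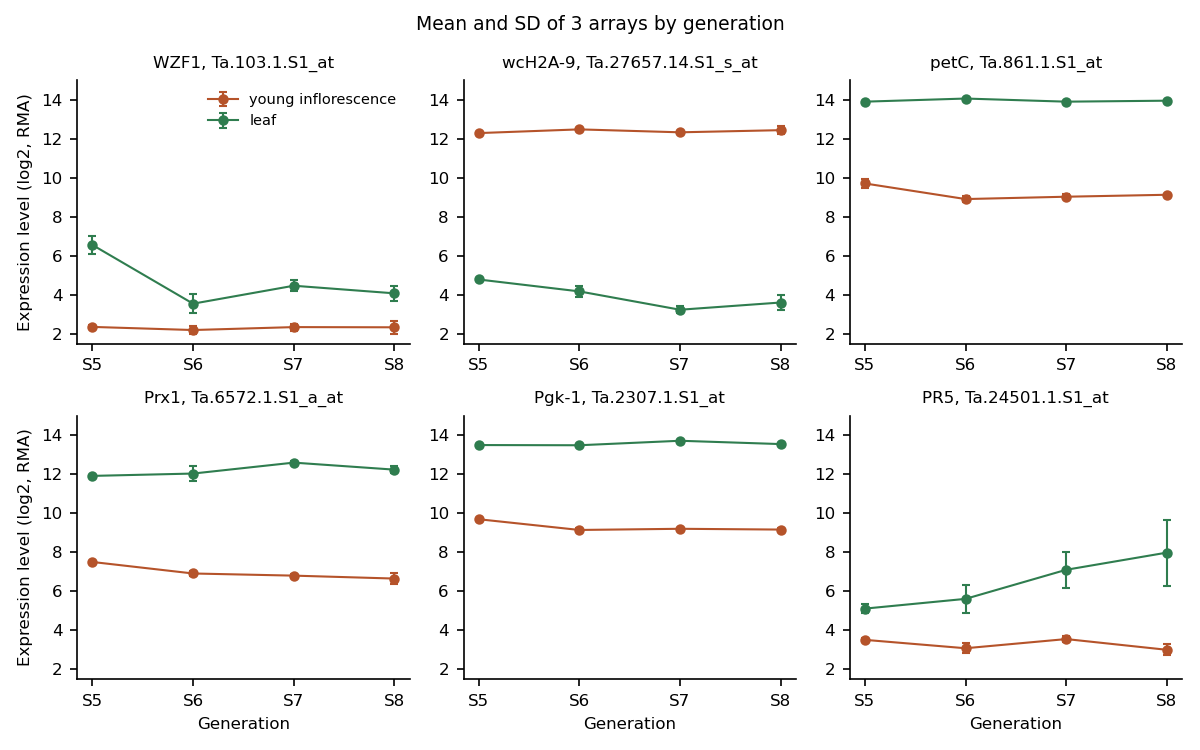
Mean level with SD of 3 arrays (y axis, log2) of 6 genes by generation (x axis), in young inflorescence and leaf of AT2. WZF1 leaf is highest in S5 (6.55), petC, Pgk-1 and Prx1 young inflorescence is highest in S5, and the PR5 leaf mean runs between 5.11 and 7.98 with SDs of up to 1.69.

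PR5, a pathogenesis-related thaumatin-like protein gene (Ta24501.1.S1_at), had means, from S5 to S8, of 3.51, 3.08, 3.55 and 3.00 in young inflorescence, and 5.11, 5.61, 7.10 and 7.98 in leaf. The arrays did not overlap, with at most 3.69 in young inflorescence and at least 4.85 in leaf. The leaf arrays of a generation differed widely, with an SD of 1.69 in S8, and the leaf levels varied between generations (adjusted p = 0.00486 from limma), while the tissue difference did not pass that test (adjusted p = 0.0987). The tissue difference was -3.17 (standard error 0.27), and -1.70 with the young inflorescence levels set to the array medians.

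The AT2 tissue difference was set against that of Mix to ask whether the tissue difference of the polyploid departed from that of the combined parental RNA. The comparison used 12 AT2 and 3 Mix arrays per tissue. The difference was unequal for 4870 genes (19%), lying above that of Mix for 2133 and below it for 2737. The count was 7775 with the mean of both parents in place of Mix, and 8911 with the Benjamini-Hochberg adjustment. This split depends on the scaling: with a further quantile normalization it was 2493 above and 2297 below. Among named probe sets 15 of 108 differed, of which none were photosynthesis genes, 2 were histones and 3 redox genes.

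Of the 5 named genes that departed most from Mix among those that passed this test, 4 kept the direction they had in Mix. PR5 differed by -3.17 in AT2 and -1.47 in Mix, an interaction of -1.70 (standard error 0.43, adjusted p = 0.023 from limma), with a mean leaf level of 6.45 in AT2 and 4.52 in Mix and young inflorescence levels below the array medians in both, 3.28 in AT2 and 3.05 in Mix. The wcH2B-8 probe set Ta7378.35.S1_x_at rose by 7.17 in AT2 and by 8.29 in Mix (interaction -1.12, standard error 0.22), but its mean leaf levels, 3.63 in AT2 and 3.28 in Mix, lay below the array medians, and the AT2 difference was 6.04 with leaf levels set to them. PIMT, which repairs damaged aspartyl residues in proteins, fell by 3.46 in AT2 and by 4.48 in Mix (interaction 1.01, standard error 0.24).

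TPC1, a calcium channel gene (Ta28747.1.S1_at), and a SAHH probe set (Ta1258.2.S1_x_at) were the named probe sets that differed from Mix by this test and had tissue differences of opposite sign in AT2 and Mix. TPC1 was lower in young inflorescence of AT2 (-0.50, standard error 0.07), a call lost where the 4 generation means of each tissue served as the samples (adjusted p = 0.06) or with a minimum fold change of 1.5 (adjusted p = 1), and differed by 0.43 (standard error 0.14) in Mix, an interaction of -0.93 (standard error 0.15, adjusted p = 9.38e-05). Its levels were 5.63, 5.93 and 6.08 in young inflorescence and 6.01, 6.35 and 6.99 in leaf of AT2, with a slight overlap. COMT1, a methyltransferase of lignin synthesis, fell by 1.25 in AT2 and by 0.37 in Mix (interaction -0.88, standard error 0.21). The SAHH probe set differed by -0.27 in AT2 and by 0.25 in Mix.

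Against the mean of TD and TTR13 the AT2 tissue difference differed for 9892 genes (38.6%), 4297 above and 5595 below, or 4760 and 4778 with a further quantile normalization. For 2653 genes (10.3%) it differed from both Mix and the natural tetraploids. AT2 carries the S and A genomes and the natural tetraploids the B and A genomes, and equal binding of the probes to RNA of each genome was not tested. Among the 15 histone probe sets 12 differed from the natural tetraploids, as did 2 of the 6 nuclear photosynthesis probe sets.

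The histone differences ran in opposite directions at different probe sets. wcH2B-8 at Ta7378.18.S1_x_at rose by 3.90 in AT2 and by 4.01 in Mix, against 0.23 in TD and 0.76 in TTR13. The AT2 difference was 2.51 with leaf levels set to the array medians. In the natural tetraploids this probe set had mean levels of 3.61 and 3.56 in young inflorescence, below the array median, against 7.27 in AT2. wcH2A-9 at Ta27657.12.S1_at behaved alike, with 3.69 in AT2, 3.47 in Mix, 0.15 in TD and -0.05 in TTR13, or 1.66 in AT2 with leaf levels so set. At Ta27657.1.S1_at, a further wcH2A-9 probe set, the order was turned round, with 2.35 in AT2 and 2.15 in Mix against 6.98 in TD and 7.86 in TTR13.

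The parents separated the probe sets in turn. Ta7378.18.S1_x_at rose by 3.69 in T. urartu and by 0.64 in Ae. longissima, whereas Ta27657.12.S1_at rose by 0.57 in T. urartu and by 3.78 in Ae. longissima. Ta7378.35.S1_x_at rose by 1.90 in T. urartu and by 8.49 in Ae. longissima. PRK, in contrast, fell by 7.05 in AT2, and its difference was -7.37 in Mix, -7.25 in TD and -7.30 in TTR13. PIMT fell by 3.46 in AT2, 3.04 in TD and 0.70 in TTR13.

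**Figure D5:**
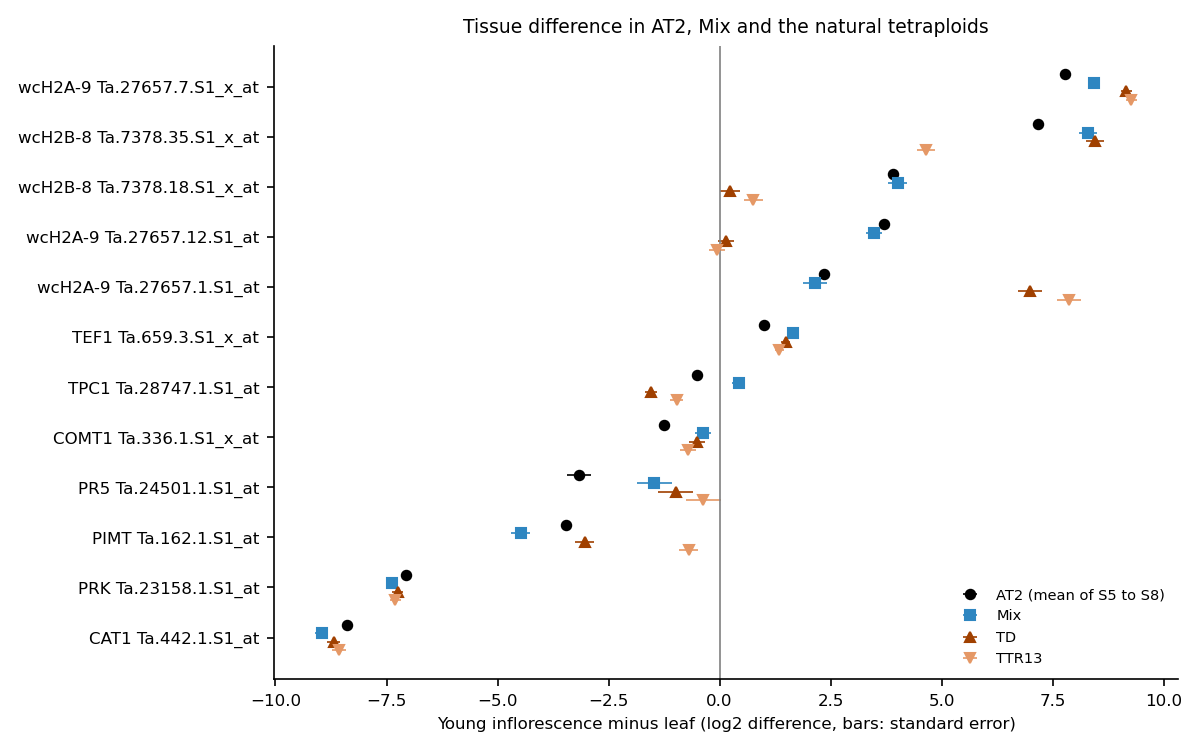
Difference of young inflorescence minus leaf (x axis, log2, bars are standard errors) of 12 probe sets (y axis) in AT2, Mix, TD and TTR13. CAT1 and PRK lie together in all 4, the wcH2B-8 probe set Ta7378.18.S1_x_at and the wcH2A-9 probe set Ta27657.12.S1_at are near 0 in TD and TTR13 but at 3.90 and 3.69 in AT2, and TPC1 lies on opposite sides of 0 in AT2 and Mix.

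By the fitted differences, the 2 largest rises and 2 largest falls among probe sets without a gene name were larger than those of the named genes, an order that rests on levels below the array medians. Ta30563.1.S1_s_at had a lowest, median and highest level of 13.34, 13.47 and 13.56 in young inflorescence and 3.32, 3.82 and 4.42 in leaf, a difference of 9.68, or 8.70 with the leaf levels set to the array medians. Ta7378.34.S1_at differed by 9.25, or 7.75 so computed. Ta1989.1.S1_a_at had 2.45, 3.02 and 3.80 in young inflorescence and 13.48, 13.57 and 13.72 in leaf, a difference of -10.45, or -8.84 with the young inflorescence levels so set. With low levels so set, of these 4 only Ta30563.1.S1_s_at and Ta1989.1.S1_a_at changed more than every named gene. Ta5385.1.S1_at fell by 9.50 in AT2 (-7.41 so computed), against 5.65 in Mix, 3.58 in TD and 3.68 in TTR13 (interaction with Mix -3.85, standard error 0.52).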

How the data were processed

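Arrays were grouped by their titles into 8 groups of 3. The authors made the deposited log2 values by RMA, which subtracts background, quantile-normalizes the arrays and gives 1 summary per probe set, and the labels also name MAS5 and limma. Versions, and whether both tissues were normalized together, are not given in the sources used here. The values were used as deposited, and 0 columns lacked a sample. In place of present calls, probe sets were kept by the 65th percentile rule. limma 3.58.1 (lmFit, eBayes) in R 4.3.3 (tables read with data.table, version 1.17.8) fitted 8 group means over 24 arrays, and 18 group means over 54 arrays for the contrasts with Mix and the natural tetraploids. Calls used Benjamini-Yekutieli adjusted p under 0.05, the threshold of the study's methods. P-values measure the spread between plant pools, and precision is limited by the number of arrays. Replicate numbers did not pair the arrays. Gene names came from the platform annotation, updated through RefSeq. Named genes were the 10 largest rises and falls with arrays that do not overlap, the 5 with the strongest generation effect, the 5 that differed most from Mix, the 5 brightest not called, up to 4 per list, and 4 unnamed probe sets. Further probe sets named beyond this rule were chosen after their values were seen. The comparison, the gene lists and the rule were chosen with earlier results of these data known. Alternatives were Benjamini-Hochberg adjustment, other filters, scalings and fits, replicate blocks, a minimum fold change of 1.5, and leaving out arrays or generations. The fit was tested on simulated data. Plots used matplotlib 3.10.9 under Python 3.11.15.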

Additional observations from a re-analysis of the deposited data

Results flagged for a closer look

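The tissue difference of AT2 varied between the generations for 4385 genes, differed from that of Mix for 4870 genes and from that of the natural tetraploids for 9892 genes, each by a test of the difference itself. Between the generations, the highest and lowest of the 4 tissue differences lay 2.85 apart on the log2 scale for WZF1 (Ta103.1.S1_at), 1.60 for wcH2A-9 (Ta27657.14.S1_s_at), 0.71 for Pgk-1 (Ta2307.1.S1_at), 0.96 for petC (Ta861.1.S1_at) and 1.38 for Prx1 (Ta6572.1.S1_a_at). For wcH2A-9, 10 leaf arrays lay below their medians, and for WZF1 12 young inflorescence and 8 leaf arrays did. The spreads of WZF1 and wcH2A-9 thus rest in part on levels that could not be separated from background. The tissue difference of AT2 minus that of Mix was -1.70 for PR5 (Ta24501.1.S1_at), -1.12 for wcH2B-8 (Ta7378.35.S1_x_at, with leaf levels below the array medians in both), 1.01 for PIMT (Ta162.1.S1_at), -0.93 for TPC1 (Ta28747.1.S1_at) and -0.88 for COMT1 (Ta336.1.S1_x_at).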

How the results depend on the processing

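With the Benjamini-Hochberg adjustment, 10389 genes had a tissue difference that varied between generations, 8911 differed from Mix, and 3565 in young inflorescence and 17397 in leaf varied between generations. Without a filter, 18145 genes were higher and 16817 lower in young inflorescence. With only probe sets without shared probes, which leaves fewer genes to test, 7878 were higher and 6481 lower, 4428 and 3340 of them at least 2-fold, 11679, 11837, 12251 and 11696 were called in S5, S6, S7 and S8, 9257 in all 4, 2666 varied between generations, 3066 differed from Mix and 6351 from the natural tetraploids, and 793 in young inflorescence and 7001 in leaf varied within the tissue. A minimum fold change of 1.5 gave 7910 higher and 6203 lower. Genes whose difference varied between generations numbered 2203 without S5 and 2658 without S7. Genes varying between generations in young inflorescence numbered 2017 in the fit of all 54 arrays and 2842 with 1 weight per tissue, and in leaf 5225 with each tissue fitted alone. With the mean of both parents in place of Mix, 7775 differed. The weights, the fits of each tissue alone and leaving out a generation for this test were chosen after seeing the data, and the causes were not tested beyond the fewer genes or arrays named.

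Leaving out each array in turn gave 11792 to 11893 genes higher and 9888 to 10057 lower in young inflorescence, 6729 to 6818 and 5464 to 5516 at least 2-fold, 17204 to 18399 called in S5, 17376 to 18520 in S6, 17857 to 19056 in S7, 17060 to 18239 in S8, 14089 to 14453 in all 4, 3431 to 5349 varying between generations, 3443 to 5278 different from Mix, 9342 to 10065 different from the natural tetraploids, and, varying within the tissue, 701 to 1377 in young inflorescence and 9611 to 11549 in leaf. Same-numbered arrays of both tissues deviated together with correlations of -0.137 to 0.0912 over 12 pairs, 0 of them over 0.1, and 5 arrays correlated best with their own number. With the replicate number as a block the calls were 11854 higher and 9989 lower in young inflorescence. With the 12 pairs of generation and number as the replicate block, 2520 genes varied between generations, and no other count that this block could give moved by over 1.5 times.

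Of 57 named probe sets, 49 kept their direction and call in all alternatives run. DMAS1 (Ta5335.1.A1_at), not called at 0.04, was -0.07 with quantile normalization, -0.095 without S6 and between -0.009 and 0.076 with any array left out. Levels near the array median limit what can be said of the dimmer tissue.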
